A study of Mus musculus with 64 samples.

Results

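The genes described here encode the subunits that set apart the 3 assemblies of the mammalian SWI/SNF (BAF) chromatin remodeller. They were taken by name and matched by Ensembl identifier: Arid1a, Arid1b and Dpf2 for canonical BAF (cBAF), Arid2, Pbrm1, Brd7 and Phf10 for polybromo BAF (PBAF), and Brd9, Bicra and Bicral for non-canonical BAF (ncBAF). All 10 were listed in the read counts of every sorted population and all 10 passed the filter on low counts in each fit. They are 10 of the 38924 genes listed for LSK cells and 10 of the 11902 genes listed for all 4 populations.

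BAF complexes use the energy of ATP to slide or evict nucleosomes and so open chromatin to transcription factors. The assemblies share an ATPase and a core of subunits, and each adds its own: cBAF, which acts mostly at enhancers, carries an ARID1 protein and a DPF protein, PBAF carries Arid2 with polybromo, Brd7 and Phf10, and ncBAF carries Brd9 with a Bicra-type scaffold and no ARID protein. Smarcd2, the gene removed in these fetuses, encodes a BAF60 subunit that links the remodeller to transcription factors, and mice without it fail to make normal neutrophils.

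RNA was measured in 64 libraries from hematopoietic progenitors sorted from fetal C57BL/6 mouse livers at 13/14 days post coitum, except 1 heterozygous CMP library, replicate 1, which is labelled 14.5 days. The groups were Smarcd2 -/- (KO), Smarcd2 +/- (HET) and wild type (WT). LSK cells, the stem and multipotent fraction that lacks lineage antigens and carries Sca-1 and c-Kit, gave 9 KO, 9 HET and 5 WT libraries. Granulocyte-monocyte progenitors (GMP, CD34+ with high Fc gamma receptor) gave 3 KO, 7 HET and 3 WT libraries, and megakaryocyte-erythroid progenitors (MEP, low for both antigens) gave 4 KO, 7 HET and 3 WT. Common myeloid progenitors (CMP, CD34+ with intermediate Fc gamma receptor) gave 4 KO, 7 HET and 3 WT. For the 3 myeloid gates the labels give CD177 as a sorted antigen, whereas the antibodies listed for staining include CD117 (c-Kit). In these gates KO replicates 13 and 15 carry title number M34, which holds no HET or WT library. Genotype and title number thus cannot be fully told apart there. How the Smarcd2 allele was made is not given in the labels. Nor do they say whether any libraries share a fetus, and p-values therefore cover the variation among libraries, which may be partly technical.

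Gene reads per library ran between 4327582 and 24069833 in LSK, 1577073 and 8092644 in CMP, 1006090 and 6300070 in GMP, and 1488328 and 5646315 in MEP. Smarcd2 itself stood at 0 to 1.96 CPM (reads scaled to a common library size) in the KO libraries of all populations, 12.5 to 101 CPM in HET and 40.5 to 143 CPM in WT libraries. The library labelled GMP HET replicate 8 stood apart. The summed level of its 7 CMP and GMP markers was 237 CPM, against 15331 to 37941 CPM in the other GMP HET libraries, so this library lacks the markers of its gate. The other libraries numbered 8 also stood out, with a sum of CMP and GMP markers of 1017 CPM in CMP HET 8 (others 4217 to 5750) and a sum of stem markers of 58.2 CPM in MEP HET 8 (others 253 to 368). The comparisons of GMP, CMP and MEP are therefore also given without the libraries numbered 8, an alternative chosen after seeing the data. A length index, computed as the median log2 level of long genes (transcripts over 5000 bases) less that of short genes (under 1500 bases), and the share of synthetic spike-in reads are given below beside the results whose groups differed in them. In bulk samples, fewer cells of a type and less RNA per cell cannot be told apart.

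In WT cells the PBAF bromodomain gene Brd7 was the most abundant of the 10 per kilobase of exon, and the ncBAF scaffold gene Bicra the least, in every population. Brd7 averaged 24.6 CPM per kb in WT LSK, 66.9 in WT GMP, 47.3 in WT MEP and 36.5 in WT CMP libraries. Bicra averaged 0.562, 0.823, 1.35 and 1.54 CPM per kb in the same groups. In WT LSK, Brd7 was followed by Pbrm1, the polybromo protein that reads acetylated histones, at 11.6 CPM per kb, and Dpf2, a PHD finger reader of histone tails, at 10.6. Arid1a and Arid2, the large DNA-binding subunits of cBAF and PBAF, came next at 7.31 and 6.71, and then Brd9, the bromodomain subunit of ncBAF, at 5.50. Phf10, a PHD finger subunit of PBAF, Bicral, the paralog of Bicra, and Arid1b, the paralog of Arid1a, followed at 2.87, 2.60 and 2.14. The WT ranges overlapped between Pbrm1 and Dpf2, Arid1a and Arid2, Phf10 and Bicral, and Bicral and Arid1b, so these neighbours did not differ beyond their spread. By its mean Phf10 held a different place in each population: rank 7 of 10 in WT LSK, 3 in GMP, 2 in MEP and 6 in CMP. Its WT range overlapped that of the next gene in every population, so these places are not settled. LSK libraries carry other title numbers than those of the other gates, so population and title number cannot be told apart there. LSK levels are therefore set beside the others with no test.

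In KO LSK cells 1 cBAF gene and 1 ncBAF gene, Arid1b and Bicral, rose relative to WT, and no member fell. This is 2 of 10 members, where 9.53% of all 13878 genes tested were higher in KO (edgeR quasi-likelihood test, Benjamini-Hochberg adjusted p under 0.05). The median log2 fold change of the 10 was 0.23, against 0.01 over all genes, whose middle range ran between -0.18 and 0.24. The length index averaged 0.08 ± 0.14 in KO and -0.12 ± 0.11 in WT LSK libraries, and its part in this median was not tested. With the index as a covariate 1 member passed, where 10.1% of genes did. Of the 10 values 8 were positive, and 7 had an unadjusted p under 0.05, as had 32.1% of all genes.

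Arid1b (chromosome 17, 4994332-5347656, plus strand, GRCm38), one of the mutually exclusive ARID1 subunits of cBAF, had a lowest, median and highest level of 37.0, 44.5 and 52.3 CPM in the 9 KO libraries. The 9 HET libraries had 30.5, 32.6 and 47.4 CPM, and the 5 WT libraries had 22.37, 23.997, 28.3, 28.6 and 31.4 CPM. Every KO library stood above every WT library, and 8 of 9 HET libraries did as well. Among the genes tested and listed in all populations, 2.79% had all KO above all WT libraries. The log2 fold change was 0.73 ± 0.11 (SE) for KO against WT (edgeR adjusted p = 5.92e-05) and 0.36 ± 0.09 for KO against HET (adjusted p = 0.00870). HET against WT had a similar size, 0.37 ± 0.11, but did not pass (adjusted p = 0.336); 1 gene in all, 0.00721%, passed in that comparison. Titles group the LSK libraries by number, and within each of the 4 numbers that hold both genotypes the KO mean exceeded the WT mean, by 0.63 to 0.73 on the log2 scale. Within all 5 numbers with KO and HET libraries it exceeded the HET mean, by 0.37 to 0.48.

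Arid1a (chromosome 4, 133679008-133756769, minus strand) is the paralog that takes the same place in cBAF. It averaged 102 ± 10.5 CPM in KO, 91.3 ± 17.9 in HET and 83.8 ± 11.1 in WT LSK libraries (SD, n = 9, 9 and 5), a log2 fold change of 0.29 ± 0.12 for KO against WT that did not pass (edgeR adjusted p = 0.0906). The KO and WT ranges, 87.8 to 118 and 69.4 to 100 CPM, overlapped. The paralogs can be told apart by reads: of 6858 coding words of 31 bases in Arid1b, 0 occur in Arid1a, and of the 3192 in Bicral and the 1761 in Brd9, 0 occur in Bicra and Brd7. The longest identical coding runs show how little the pairs share. They are given 5′ to 3′ from GENCODE M21 transcripts, in lower case, and hold no marked motif.
Arid1b and Arid1a, 26 bases: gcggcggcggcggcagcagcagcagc
Brd9 and Brd7, 18 bases: aagcacaagaagcacaag
Bicral and Bicra, 14 bases: ggacctggacttcc
The first is a run of GCG and GCA repeats.

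Per kilobase, Arid1b stood at 0.320, 0.410 and 0.448 times Arid1a in KO LSK libraries (lowest, median, highest). The ratio was 0.310, 0.337 and 0.459 in HET and 0.257, 0.298 and 0.340 in WT libraries. Arid1a thus remained the more abundant transcript in every LSK library, and the ranges of KO and WT libraries overlapped. In CMP the ratio had ranges of 0.159 to 0.214 in KO, 0.174 to 0.278 in HET and 0.190 to 0.228 in WT libraries, which overlapped throughout. Brd9 and Brd7, the bromodomain subunits of ncBAF and PBAF, kept a ratio of 0.220 in KO, 0.236 in HET and 0.225 in WT LSK libraries by their medians.

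**Figure D1:**
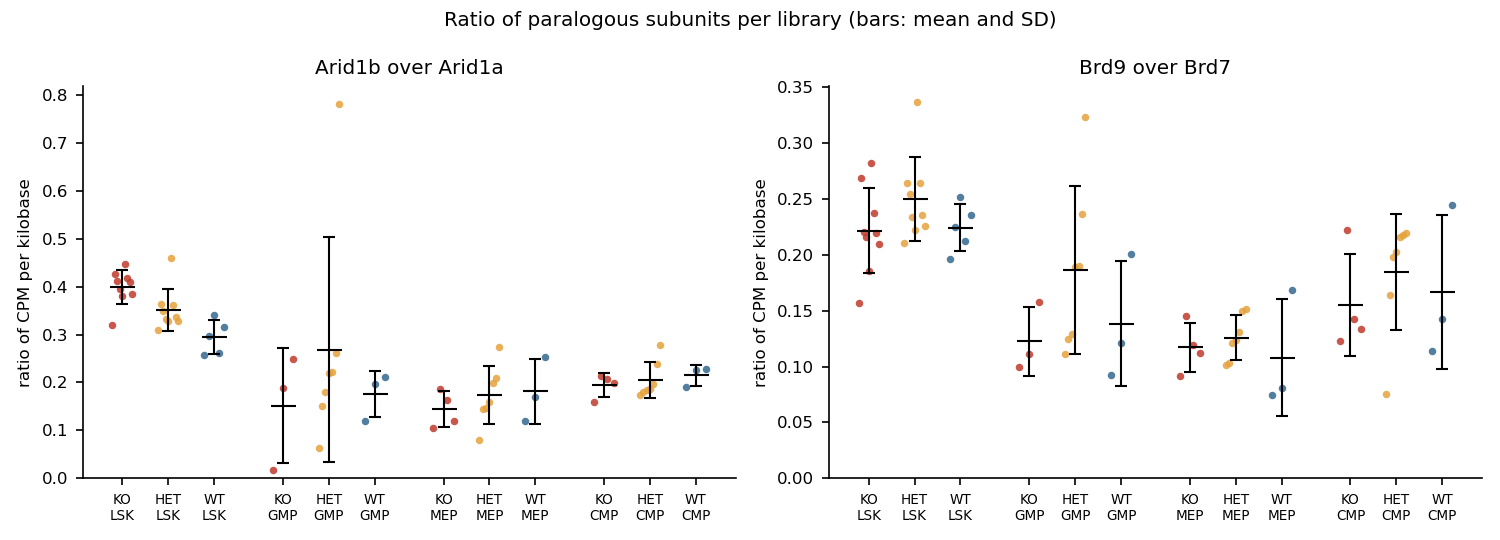
Ratio of Arid1b to Arid1a and of Brd9 to Brd7, each in CPM per kb, on the y axis, by population and genotype on the x axis, 1 point per library, with bars for the mean and SD. In LSK the Arid1b to Arid1a medians were 0.410 in KO, 0.337 in HET and 0.298 in WT libraries, while the Brd9 to Brd7 medians were 0.220, 0.236 and 0.225.

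The third cBAF gene, Dpf2, averaged 79.4 ± 7.87 CPM in KO, 76.2 ± 6.70 in HET and 69.0 ± 7.94 in WT LSK libraries. Its log2 fold change for KO against WT was 0.21 ± 0.09 and did not pass (edgeR adjusted p = 0.0949). It passed without the KO library titled KO22.2 (0.24, edgeR adjusted p = 0.0415) or the WT library titled WT24.10 (0.27, adjusted p = 0.0324).

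In ncBAF, Bicral (chromosome 17, 46798120-46858482, minus strand), a GLTSCR1-like scaffold that Brd9 binds alongside, had 20.6, 22.3 and 25.8 CPM in KO LSK libraries (lowest, median, highest). HET libraries had 13.3, 16.7 and 23.9 CPM, and WT libraries had 16.4, 16.7, 16.7, 19.57 and 19.63 CPM. All 9 KO libraries stood above all 5 WT libraries and above 8 of the 9 HET libraries, while HET and WT overlapped. The log2 fold change was 0.35 ± 0.11 for KO against WT (edgeR adjusted p = 0.0294) and 0.35 ± 0.09 for KO against HET (adjusted p = 0.0160), a comparison in which 5.93% of genes rose and the same 2 members did. HET against WT was 0.01 ± 0.11 (adjusted p = 0.987). Within title numbers the KO mean exceeded the WT mean in 4 of 4, by 0.17 to 0.52 on the log2 scale, and the HET mean in 5 of 5. Bicra, the alternative scaffold, averaged 6.86 ± 1.42 CPM in KO, 5.95 ± 2.74 in HET and 4.46 ± 1.11 in WT libraries, on 38 to 108 reads in KO and 19 to 36 in WT. Its fold change for KO against WT, 0.62 ± 0.26, was larger than that of Bicral with a wider error and did not pass (edgeR adjusted p = 0.0900). Brd9 averaged 37.1 ± 3.65 CPM in KO, 40.3 ± 3.81 in HET and 38.2 ± 2.28 in WT libraries, a log2 fold change of -0.04 ± 0.09 for KO against WT (adjusted p = 0.810).

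No PBAF gene passed in LSK cells in the main edgeR fit, which used all LSK libraries and no block or covariate. Arid2 averaged 81.7 ± 3.99 CPM in KO, 73.0 ± 6.19 in HET and 72.1 ± 5.15 in WT libraries (log2 fold change for KO against WT 0.18 ± 0.07, edgeR adjusted p = 0.0738), and 8 of 9 KO libraries stood above all WT libraries. Its KO mean exceeded the WT mean within 4 of 4 title numbers and the HET mean within 5 of 5. For KO against HET it passed with the title number as a block (0.19, edgeR adjusted p = 0.0442) and without the HET library titled HT20.4 (0.20, adjusted p = 0.0236), as Arid1a did with the block (0.26, adjusted p = 0.0380). Pbrm1 passed for KO against WT without the KO library titled KO21.2 (0.23, adjusted p = 0.0445). Pbrm1 averaged 117 ± 15.1 CPM in KO, 105 ± 8.99 in HET and 103 ± 8.69 in WT libraries, a change for KO against WT of 0.19 ± 0.09 (adjusted p = 0.142). Brd7, at 128 ± 11.8 CPM in KO, 123 ± 12.0 in HET and 129 ± 10.5 in WT libraries, changed by -0.01 ± 0.08 (adjusted p = 0.954). Phf10 averaged 16.8 ± 2.94 CPM in KO, 17.7 ± 2.07 in HET and 14.1 ± 2.78 in WT libraries, with 0.26 ± 0.14 for KO against WT (adjusted p = 0.187).

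**Figure D2:**
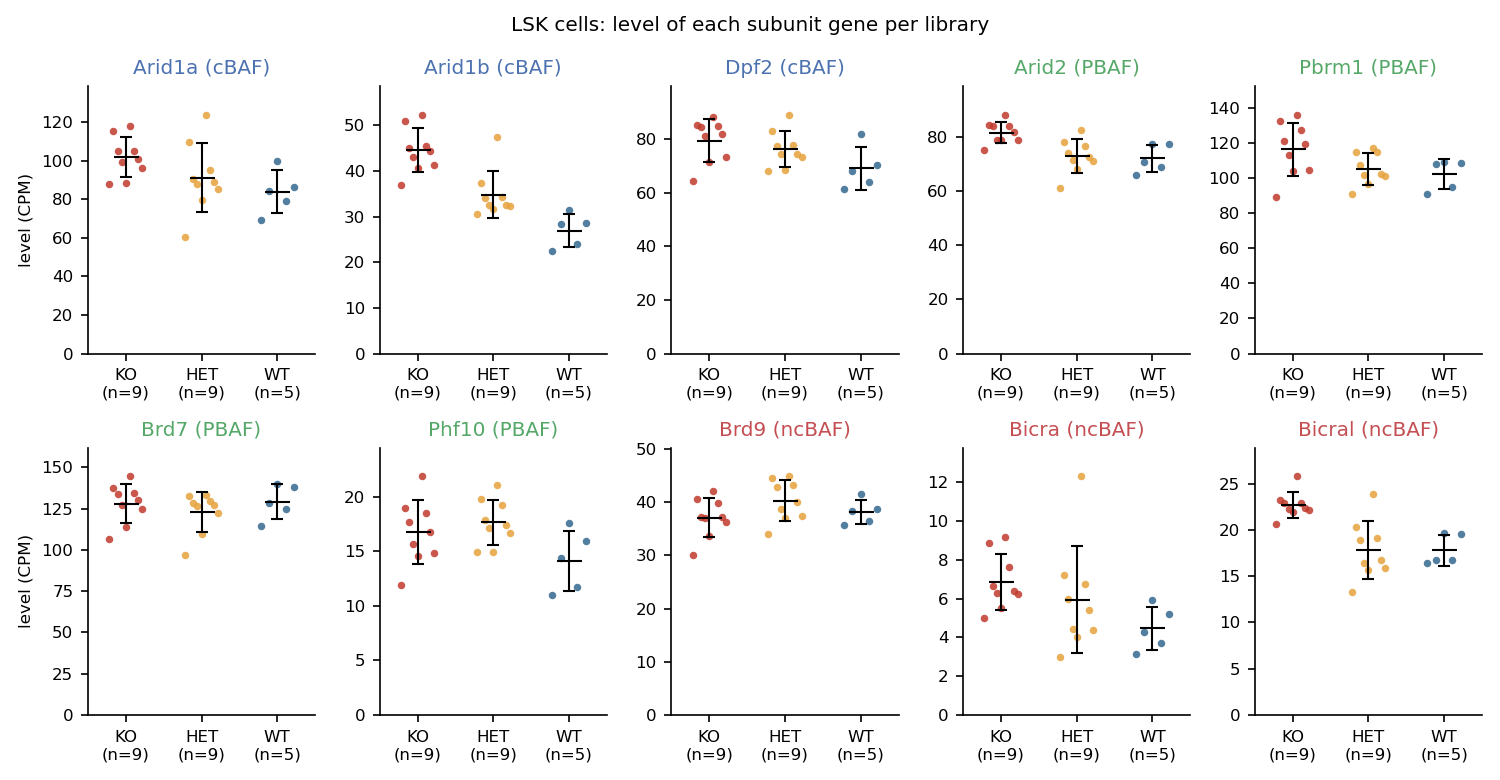
Levels of the 10 genes in LSK libraries in CPM on the y axis, by genotype (KO, HET, WT) on the x axis, 1 point per library, with bars for the mean ± SD. The 9 KO libraries of Arid1b (37.0 to 52.3 CPM) and of Bicral (20.6 to 25.8 CPM) lie above all 5 WT libraries (22.37 to 31.4 and 16.4 to 19.63 CPM).

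The LSK groups also differed in library measures. The length index averaged 0.08 ± 0.14 in KO, -0.02 ± 0.17 in HET and -0.12 ± 0.11 in WT LSK libraries, and spike-in reads made up 0.781% ± 0.239, 0.627% ± 0.163 and 0.516% ± 0.139 of reads. With the length index as a covariate Arid1b kept its call (0.67, edgeR adjusted p = 0.000791), while Bicral lost it (0.22, adjusted p = 0.230). Bicral also lost it with a covariate for the spike-in share (0.35, adjusted p = 0.0779), with no count filter (0.36, adjusted p = 0.0600), and without the WT library titled WT21.5, WT22.8 or WT24.10 (adjusted p = 0.0697, 0.0881 and 0.0589). All 6 stem markers were detected in every LSK genotype, with sums of 2463 to 3034 CPM in KO, 2239 to 2737 in HET and 2154 to 2684 in WT libraries. The sum of 6 macrophage markers spanned 17.4 to 769 CPM in KO, 37.8 to 806 in HET and 57.2 to 480 in WT libraries, and that of 5 hepatocyte markers 4.52 to 48.5, 4.43 to 135 and 9.61 to 11.8 CPM. Their part in the changes was not tested.

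In CMP, GMP and MEP no member passed for KO against WT by edgeR, DESeq2 or limma without covariates. In CMP, where 1.84% of genes passed, all 10 fold changes were positive, between 0.01 and 0.46 with a median of 0.16, and 1 had an unadjusted p under 0.05, as had 12.9% of genes. That gene was Bicral, at 23.6, 23.4, 24.49 and 23.2 CPM in KO against 16.5, 18.2 and 16.6 CPM in WT libraries. The other members stood at 0.16 ± 0.15 for Arid1a, 0.04 ± 0.20 for Arid1b, 0.27 ± 0.18 for Dpf2, 0.01 ± 0.18 for Arid2, 0.09 ± 0.17 for Pbrm1, 0.21 ± 0.21 for Brd7, 0.09 ± 0.21 for Phf10, 0.15 ± 0.24 for Brd9 and 0.29 ± 0.28 for Bicra (log2 fold change ± SE). For Bicral all 4 KO libraries stood above all 3 WT libraries, as 9.23% of genes did, and the log2 fold change was 0.46 ± 0.22 (edgeR adjusted p = 0.386). In CMP KO against HET, where 2.19% of genes passed, a comparison that uses the same 4 KO libraries, all 10 values were positive and 0 members passed by edgeR, with 2 members and 14.5% of genes at an unadjusted p under 0.05. The nearest was Brd7, at 154, 231, 251 and 255 CPM in KO and 104, 143 and 180 CPM (lowest, median, highest) in HET libraries. Its change of 0.63 ± 0.17 (edgeR adjusted p = 0.0658) passed in DESeq2 (adjusted p = 0.0165), in limma (adjusted p = 0.0147), with the length index as a covariate (adjusted p = 0.0482) and without the libraries numbered 8 (0.57, adjusted p = 0.0468). The KO libraries of title number M34, at 255 and 251 CPM, have no HET library beside them. Within M32 the KO library had 154 CPM and HET libraries 139 to 180 CPM, and within M33 231 against 104 to 143 CPM. The CMP groups also differed in other markers: 3 macrophage markers summed to 34.3 to 69.5 CPM in KO, 20.45 to 32.6 in HET and 24.22 to 37.7 in WT libraries, and 5 hepatocyte markers to 32.1 to 122 CPM in KO, 26.3 to 1681 in HET and 292 to 720 in WT. Their part in these values was not tested.

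In GMP, where 0.204% of genes passed for KO against WT, the 10 fold changes ran between -0.93 ± 0.78 for Phf10 and 0.61 ± 0.45 for Dpf2, 7 positive, and 0 had an unadjusted p under 0.05, as had 6.45% of genes. Between them lay Arid1a at 0.22 ± 0.54, Arid1b at -0.16 ± 0.90, Arid2 at -0.71 ± 0.57, Pbrm1 at 0.15 ± 0.50, Brd7 at 0.36 ± 0.70, Brd9 at 0.39 ± 0.46, Bicra at 0.28 ± 1.02 and Bicral at 0.48 ± 0.72. Dpf2 had 148, 162 and 258 CPM in KO, 76.6, 104 and 142 CPM in HET (lowest, median, highest) and 71.6, 134 and 152 CPM in WT GMP libraries. Its KO libraries stood above all HET libraries, as 0.896% of genes did, but overlapped with WT, and no member passed for KO against HET by any of the 3 tools (0.261% of genes passed by edgeR, and 1 member and 12.3% of genes had an unadjusted p under 0.05). The GMP groups also differed in spike-in reads, 2.76% ± 0.278 in KO, 0.175% ± 0.118 in HET and 0.178% ± 0.0474 in WT libraries. They differed in the length index as well, -0.98 ± 0.99 in KO, 0.48 ± 1.55 in HET and 0.03 ± 0.63 in WT. When the edgeR fit allowed for the spike-in share, 1 member passed for KO against WT, where 13.9% of genes did. It was Bicral (2.66, edgeR adjusted p = 0.0383). All KO libraries lay far above the others in this share, so that fit cannot tell share and genotype apart. The cause of this move was not tested. In MEP, where 0.00856% of genes passed, 5 of 10 values were positive and 0 had an unadjusted p under 0.05, as had 6.92% of genes. Arid1a had 159, 180, 186 and 190 CPM in KO against 98.0, 142 and 145 CPM in WT MEP libraries (0.49 ± 0.25, edgeR adjusted p = 0.685). All KO libraries stood above all WT libraries. Pbrm1 was apart the other way, at 79.9, 97.9, 123 and 141 CPM in KO against 142, 146 and 150 CPM in WT (-0.40 ± 0.25, edgeR adjusted p = 0.685). The other members stood at 0.08 ± 0.40 for Arid1b, 0.21 ± 0.33 for Dpf2, -0.06 ± 0.36 for Arid2, 0.10 ± 0.39 for Brd7, -0.14 ± 0.55 for Phf10, 0.26 ± 0.28 for Brd9, -0.25 ± 0.39 for Bicra and -0.06 ± 0.46 for Bicral. Of all genes 4.41% had KO above WT and 5.6% KO below WT in this way. The MEP groups were apart in other markers as well: all 5 B lymphoid markers were detected in both, with sums of 72.3 to 96.1 CPM in KO and 233 to 1212 CPM in WT libraries, and the 3 megakaryocyte markers summed to 154 to 514 CPM in KO and 93.7 to 137 CPM in WT. Their part in these values was not tested. For MEP KO against HET 0.0171% of genes and no member passed by any of the 3 tools, with 0 members at an unadjusted p under 0.05.

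HET against WT gave 0 calls among members and 0.0% of genes in CMP, GMP and MEP by edgeR, with 1, 0 and 0 members at an unadjusted p under 0.05. DESeq2 called none in these, and limma called 9 members in GMP, where it called 50.9% of all genes, and none in CMP or MEP. Pbrm1 was again low in MEP, at 74.7, 109 and 132 CPM (lowest, median, highest) in the 7 HET libraries against 142, 146 and 150 CPM in WT. All HET libraries stood below all WT libraries, as 0.332% of genes did, and the change of -0.43 ± 0.23 did not pass (edgeR adjusted p = 1.00). In the LSK fit 2 members, Arid1b and Phf10, had an unadjusted p under 0.05 for HET against WT, as had 11.04% of genes.

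**Figure D3:**
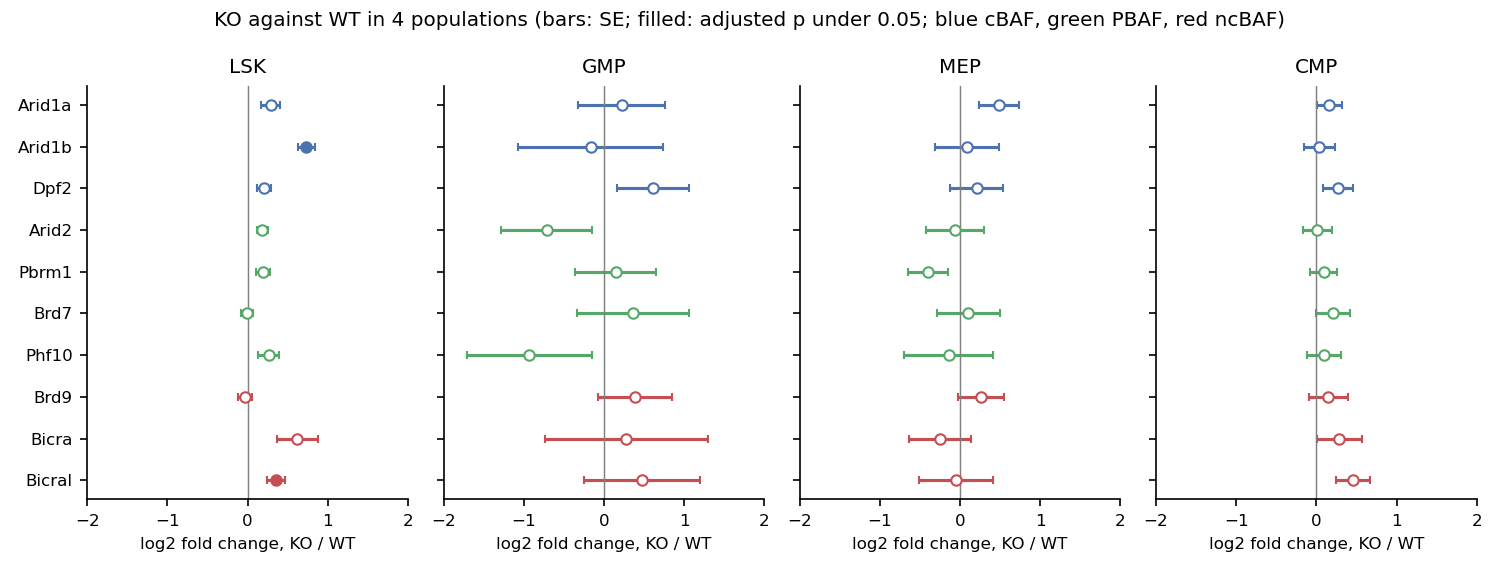
Log2 fold change of KO against WT (x axis) for the 10 genes, grouped as cBAF, PBAF and ncBAF down the page, in LSK, GMP, MEP and CMP, with bars for the SE and filled points for adjusted p under 0.05. The LSK values have the shortest bars, 0.07 to 0.26, and those of Arid1b (0.73) and Bicral (0.35) are the members that passed the test.

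The difference between KO effects was tested for each of the 6 pairs of populations, and no member passed by edgeR or DESeq2. By edgeR 1 member each had an unadjusted p under 0.05 in LSK against GMP and LSK against MEP, where 21.7% and 13.4% of genes had one, and 0 in the other pairs. The genes that passed made up 0.0084% for LSK against CMP, 4.8% for LSK against GMP, 0.513% for LSK against MEP, 0.0169% for GMP against CMP, 0.414% for GMP against MEP and 0.0% for MEP against CMP. For Arid1b the KO effect in LSK exceeded that in CMP by 0.68 ± 0.53, that in GMP by 0.79 ± 0.59 and that in MEP by 0.65 ± 0.53 (edgeR adjusted p = 1, 0.436 and 0.658). The data therefore do not show that the rise of Arid1b differs between LSK cells and the other progenitors. limma called 1 member in LSK against MEP, Phf10 (0.91, adjusted p = 0.0219), and 6.87% of all genes.

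Between gates of the same genotype, the members that passed by edgeR were Phf10, Brd9 and Dpf2. Other members had changes as far as -1.23 and 1.05 in KO GMP against CMP without passing. Phf10 (chromosome 17, 14945009-14961273, minus strand) was higher in HET MEP than in HET CMP libraries, the 1 member of 10 to pass where 3.86% of genes were called higher. HET MEP libraries had 46.2, 55.8 and 177 CPM (lowest, median, highest) and HET CMP libraries 20.8, 24.6 and 30.03 CPM. All 7 MEP libraries stood above all 7 CMP libraries, as 2.87% of genes did. The log2 fold change was 1.69 ± 0.40 (edgeR adjusted p = 0.00279) and without the libraries numbered 8 it was 1.43 (adjusted p = 0.0179). KO MEP libraries had 46.4, 63.6, 70.0 and 173 CPM and KO CMP libraries 24.22, 29.4, 40.0 and 42.0 CPM. WT MEP libraries had 53.6, 103 and 139 CPM and WT CMP libraries 21.63, 35.7 and 37.0 CPM. The gates did not overlap in any genotype, but KO (1.38 ± 0.52, edgeR adjusted p = 0.0894) and WT (1.67 ± 0.61, adjusted p = 0.187) did not pass. In these comparisons 9.37% and 3.1% of genes passed. The gates were apart in either direction for 25.1% of genes in KO, and MEP stood above CMP for 12.7% in WT. The highest Phf10 libraries, HET MEP 8 at 177 CPM and KO MEP 15 at 173 CPM, had the lowest length indices of their groups, -1.57 and -1.83. With the index as a covariate the HET change was 1.37 (edgeR adjusted p = 0.00108). Markers of B lymphoid cells moved with the gates: all 5 were detected in HET MEP, with sums of 162 to 1091 CPM, and 4 in HET CMP, with sums of 49.5 to 67.9 CPM. The sums were 72.3 to 96.1 CPM in KO MEP and 39.9 to 75.2 in KO CMP, and 233 to 1212 CPM in WT MEP and 52.9 to 60.9 in WT CMP libraries. Hepatocyte markers, all 5 detected, summed to 30.8 to 4165 CPM in HET MEP and 26.3 to 1681 CPM in HET CMP. Their part in the change was not tested. Phf10 shares 470 exon bases with 1600012H06Rik on the opposite strand, a gene with 7952 LSK reads against 3677 for Phf10, and without strand their reads there cannot be told apart.

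Brd9 (chromosome 13, 73937811-73960895, plus strand) was higher in HET GMP than in HET MEP libraries, again the 1 member to pass (11.8% of genes were called higher). It had 37.6, 46.7 and 84.1 CPM in HET GMP and 22.81, 28.9 and 40.4 CPM in HET MEP libraries (lowest, median, highest). The ranges overlapped slightly. The log2 fold change was 0.84 ± 0.23 (edgeR adjusted p = 0.00708), and 0.93 without the libraries numbered 8 (adjusted p = 0.000642). The B lymphoid markers summed to 26.8 to 179 CPM in HET GMP, against 162 to 1091 CPM in HET MEP, and their part was not tested. KO GMP libraries had 50.8, 82.7 and 90.5 CPM and KO MEP libraries 30.4, 31.6, 38.5 and 53.4 CPM, a change of 0.92 ± 0.31 that passed (adjusted p = 0.0324). WT GMP libraries had 36.3, 59.6 and 69.2 CPM and WT MEP libraries 27.5, 31.6 and 38.3 CPM (0.72 ± 0.34, edgeR adjusted p = 0.252), and 6.95% of genes and no member passed in WT, with 1 member and 18.4% of genes at an unadjusted p under 0.05.

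Dpf2 (chromosome 19, 5896516-5913010, minus strand) was higher in KO GMP than in the other KO gates. KO GMP libraries had 148, 162 and 258 CPM, KO MEP libraries had 87.6, 88.9, 92.8 and 132 CPM, and KO CMP libraries had 75.2, 84.4, 101 and 112 CPM. The GMP libraries stood above all libraries of both other gates. The log2 fold change was 0.88 ± 0.29 against MEP (edgeR adjusted p = 0.0249) and 1.00 ± 0.29 against CMP (adjusted p = 0.0193). Dpf2 and Brd9 were the 2 members to pass in KO GMP against MEP, where 9.15% of genes were called higher. Dpf2 was the 1 to pass in KO GMP against CMP, where 7.73% were called higher.

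The ARID subunit genes lay on the other side. Arid1a had 74.6, 102 and 122 CPM in KO GMP, 159, 180, 186 and 190 CPM in KO MEP, and 133, 138, 161 and 189 CPM in KO CMP libraries. Arid1b had 2.36, 20.34 and 21.19 CPM in KO GMP, the lowest on 9 reads, 21.42, 25.2, 32.2 and 32.7 CPM in KO MEP, and 24.14, 30.3, 35.4 and 44.4 CPM in KO CMP libraries. For both genes every KO GMP library stood below every library of the other gates. Arid2 had 34.7, 39.3 and 66.1 CPM in KO GMP and 70.1, 85.5, 102 and 125 CPM in KO CMP libraries, also apart, but overlapped with KO MEP at 46.5, 96.8, 110 and 115 CPM. None of these differences passed. Against MEP Arid1a stood at -0.88 ± 0.33 (edgeR adjusted p = 0.0504), and against CMP Arid2 stood at -1.06 ± 0.40 (adjusted p = 0.0573). The longest transcripts of Arid1a, Arid1b and Arid2 have 8187, 11325 and 8507 bases. Relative to their gate, KO GMP replicates 6, 13 and 15 had length indices of -1.50, 0.17 and -1.60. With the index as a covariate 5 members passed in KO GMP against MEP, 3 higher and 2 lower (30.3% of genes), and 0 against CMP (8.36%). The cause of the differences was not tested. Brd7 and Brd9 stood above all KO CMP libraries in KO GMP, also without passing (edgeR adjusted p = 0.0757 and 0.0821). In all, 6 of 10 members were apart in KO GMP against CMP, like 37.0% of genes in either direction, and 3 of 10 in KO GMP against MEP, where 9.18% of genes had all GMP above all MEP libraries and 11.8% below.

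The ncBAF scaffold genes were lower in every KO MEP than in every KO CMP library, without passing. Bicra had 7.64, 8.71, 8.71 and 10.8 CPM in KO MEP and 13.5, 14.0, 15.7 and 16.3 CPM in KO CMP libraries (-0.72 ± 0.55, edgeR adjusted p = 0.487). Bicral had 9.44, 14.7, 17.6 and 21.7 CPM in KO MEP and 23.2, 23.4, 23.6 and 24.49 CPM in KO CMP libraries (-0.56 ± 0.46, edgeR adjusted p = 0.525). With Phf10, 3 of 10 members were apart in this comparison, near the 25.1% of all genes. In WT, Bicra stood at 5.64, 6.497 and 7.48 CPM in GMP and 10.4, 12.5 and 13.7 CPM in CMP libraries, apart like 13.1% of genes with GMP below CMP. Pbrm1 stood at 90.9, 105 and 126 CPM in WT GMP and 142, 146 and 150 CPM in WT MEP libraries, apart like 14.3% of genes with GMP below MEP. The WT MEP libraries of Pbrm1 also stood above those of WT CMP, at 116, 118 and 140 CPM, as 12.7% of genes did, without passing. Phf10 was the other member apart there. The Bicra values rest on 7 to 78 reads a library.

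The calls of Dpf2 and Brd9 in KO GMP rest on 3 libraries that also differed in content: spike-in reads were 2.76% ± 0.278 of reads in KO GMP, 0.158% ± 0.0333 in KO MEP and 0.242% ± 0.124 in KO CMP libraries. The length index averaged -0.98 ± 0.99 in KO GMP, -0.25 ± 1.08 in KO MEP and 0.01 ± 0.29 in KO CMP libraries, each relative to its own gate. These averages are therefore not compared between gates. Macrophage markers summed to 67.5 to 174 CPM in KO GMP and 1.47 to 5.89 CPM in KO MEP libraries, over 6 markers. In KO CMP the sum was 34.3 to 69.5 CPM over the 3 markers listed there. With a covariate for the spike-in share none of the 3 calls held (Dpf2 0.27 against MEP, edgeR adjusted p = 0.638, and 0.47 against CMP, adjusted p = 0.427; Brd9 0.05, adjusted p = 0.949). With the length index as a covariate the Dpf2 call against CMP was lost (0.64, edgeR adjusted p = 0.0679), and both calls against MEP held (Dpf2 0.68, adjusted p = 0.0153, and Brd9 0.68, adjusted p = 0.0296). Without GMP KO replicate 15 none of them held (Dpf2 0.61, adjusted p = 0.187, and 0.70, adjusted p = 0.155; Brd9 0.86, adjusted p = 0.0894), and single CMP or MEP libraries also ended them. Without the libraries numbered 8 all 3 kept their call. Then 4 members passed against CMP, where 38.8% of genes passed in either direction, with Arid2 lower (-0.99, edgeR adjusted p = 0.0304) and Brd7 and Brd9 higher (1.13 and 0.82, adjusted p = 0.0286 and 0.0171). Against MEP 4 passed, where 31.7% of genes did, with Arid1a and Arid2 lower (-0.83 and -0.96, adjusted p = 0.0381 and 0.0396).

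Brd7 varied widely among GMP libraries of the same genotype. It had 346, 433 and 626 CPM in KO, 87.7, 188 and 513 CPM in HET (lowest, median, highest) and 137, 430 and 486 CPM in WT GMP libraries. CMP libraries had 154, 231, 251 and 255 CPM in KO, 104, 143 and 180 CPM in HET and 142, 180 and 252 CPM in WT. The change for HET GMP against CMP was 0.90 ± 0.31 (edgeR adjusted p = 0.0746), where 5.6% of genes and no member passed, with 5 members, and 2295 of the 11829 genes, at an unadjusted p under 0.05. Without the libraries numbered 8, Brd7 (1.01, adjusted p = 0.0306) and Phf10 (1.32, adjusted p = 0.0374) passed, as did 11.6% of genes. In WT GMP against CMP 1.03% of genes and no member passed by edgeR or DESeq2, with 1 member and 11.3% of genes at an unadjusted p under 0.05, and limma called 8 members and 57.7% of all genes.

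The windows before the RefSeq start of the 3 genes that passed between gates are shown for their base make-up, without bases of annotated UTR or coding exons (RefSeq, GRCm38.p6). Capitals mark the GC box GGGCGG bound by SP and KLF factors, sought on both strands with overlapping matches counted. The core words GAGGAA of PU.1 and GATAA of GATA factors were sought the same way and occur in none of the 3.
Phf10, chr17:14961274-14961510, minus strand: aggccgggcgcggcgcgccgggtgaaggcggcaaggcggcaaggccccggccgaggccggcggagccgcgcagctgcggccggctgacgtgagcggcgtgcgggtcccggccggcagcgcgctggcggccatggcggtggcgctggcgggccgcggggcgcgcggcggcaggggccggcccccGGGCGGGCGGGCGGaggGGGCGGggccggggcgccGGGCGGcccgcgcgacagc
Brd9, chr13:73937785-73937810, plus strand: gccccaccctgacccggaagcacttg
Dpf2, chr19:5912872-5913121, minus strand: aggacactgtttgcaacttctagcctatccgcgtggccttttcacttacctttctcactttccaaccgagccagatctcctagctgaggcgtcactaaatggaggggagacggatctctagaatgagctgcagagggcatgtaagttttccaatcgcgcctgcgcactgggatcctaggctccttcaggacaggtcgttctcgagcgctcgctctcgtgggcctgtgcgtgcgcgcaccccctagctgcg
The Phf10 window holds 5 GC boxes in 237 bases with 88.2% G and C, the Brd9 window 0 in 26 bases with 69.2%, and the Dpf2 window 0 in 250 bases with 57.2%. At least 1 GC box occurs in 30.9%, 8.67% and 32.7% of the windows of these lengths, in the same place before all 32851 RefSeq starts. These matches describe letters and not bound sites. Of the 10 genes 7 had an entry. Arid2, Bicra and Bicral had none, the Arid1b window lies inside the gene as GENCODE places it, and so does a stretch of the Dpf2 window, in an intron and a non-coding exon of a longer transcript.

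**Figure D4:**
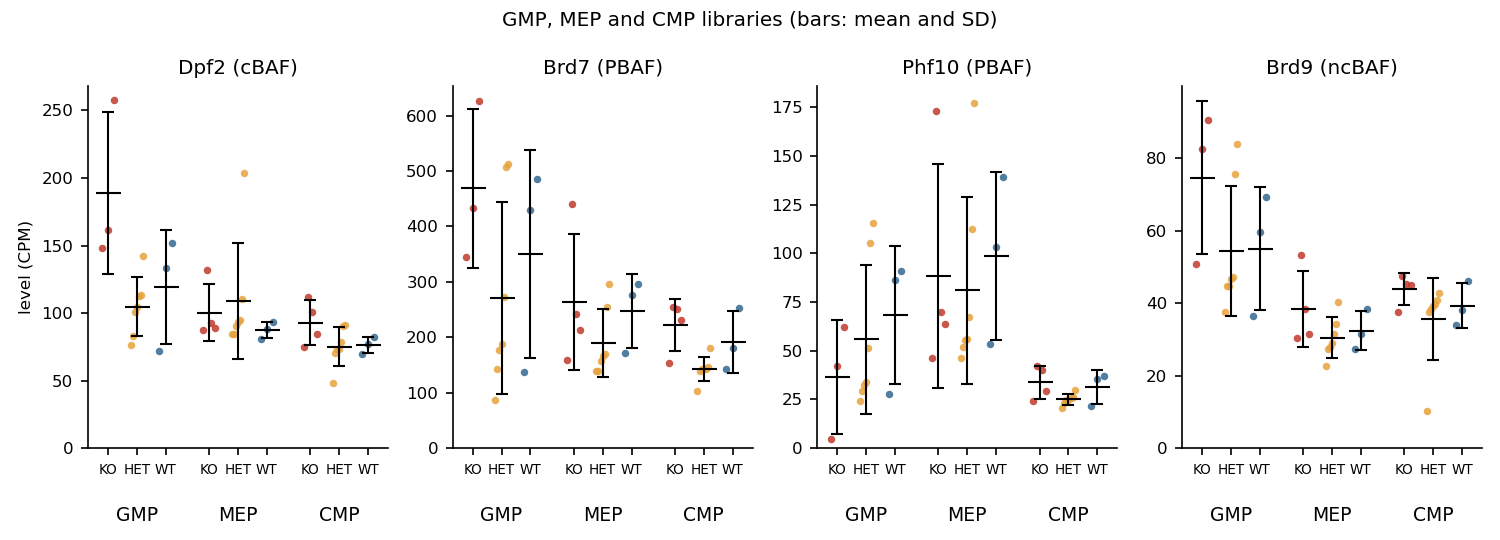
Levels of Dpf2, Brd7, Phf10 and Brd9 in CPM on the y axis, by gate (GMP, MEP, CMP) and genotype on the x axis, 1 point per library, with bars for the mean and SD. Phf10 in HET MEP (46.2 to 177 CPM) lies above HET CMP (20.8 to 30.03 CPM), and Dpf2 in KO GMP (148 to 258 CPM) above KO MEP and KO CMP.

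As a share of the summed CPM per kb of the 10 genes, PBAF transcripts made up most in every group. In LSK they were 58.7% ± 1.53 in KO (range 56.3% to 61.7%), 59.2% ± 2.54 in HET and 61.5% ± 1.73 in WT libraries (59.1% to 62.9%). cBAF transcripts were 29.7% ± 1.57 in KO (27.8% to 32.1%), 29.0% ± 2.12 in HET and 26.9% ± 2.03 in WT libraries (25.2% to 30.1%). The KO and WT ranges of both classes overlapped. The ncBAF share was 11.5% ± 0.935 in KO, 11.8% ± 0.931 in HET and 11.6% ± 0.864 in WT LSK libraries. In MEP it was 7.04% ± 1.07 in KO, 7.43% ± 1.68 in HET and 6.79% ± 2.30 in WT, and in CMP 10.1% ± 0.868, 10.9% ± 0.581 and 9.65% ± 1.93. The PBAF share in GMP was 68.1% ± 0.479 in KO, 63.9% ± 11.1 in HET and 70.7% ± 9.03 in WT libraries, and Brd7 was its largest part in WT. The shares are of transcripts and do not measure assembled complexes, and with the longest transcript in place of all exons the PBAF share of WT LSK was 57.3%.

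**Figure D5:**
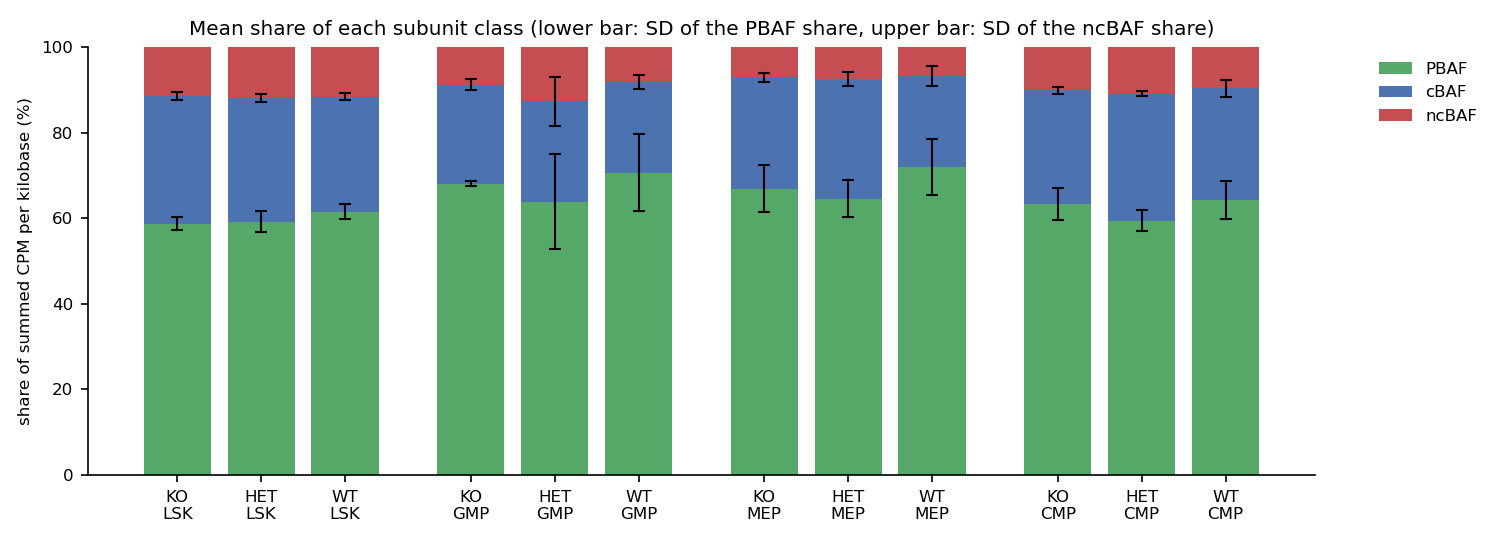
Share of cBAF, PBAF and ncBAF transcripts in the summed CPM per kb of the 10 genes, in percent on the y axis, by population and genotype on the x axis, as stacked mean shares with bars for the SD of the PBAF (lower) and ncBAF (upper) shares. In LSK the cBAF share was 29.7% in KO, 29.0% in HET and 26.9% in WT libraries, and the ncBAF share 11.5%, 11.8% and 11.6%.

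Of 18 other BAF genes (ATPases, core, BAF60, BCL7 and SS18 families and DPF paralogs), 14 were tested in LSK. For KO against WT 0 rose and 2 fell: Actl6a, an actin-related subunit (-0.25 ± 0.05, edgeR adjusted p = 0.00220), and Smarcb1, a core subunit that contacts the nucleosome (-0.18 ± 0.07, adjusted p = 0.0499). Among all 13878 genes tested, 2610 passed in either direction, and 1322 of these were higher in KO. The median of the 14 was 0.07, against 0.23 for the 10 class-defining genes and 0.01 for all genes. The part of transcript length in these medians was not tested. In CMP, GMP and MEP 0 of the other BAF genes passed for KO against WT by edgeR, with 0, 0 and 1 at an unadjusted p under 0.05.

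Over the 23 LSK libraries, after removal of each genotype's mean, the genes most like Arid1b among 9650 were Hectd4 (Pearson r = 0.81), Kmt2d (0.78) and Csk (0.76). Those most like Bicral were Dpp3 (0.75), Daxx (0.71) and Myo9b (0.69). Between members, the highest of 45 values was between classes, Arid1a with Arid2 (0.75), followed by Arid1a with Arid1b (0.72), Arid1a with Phf10 (0.63) and Arid1a with Bicra (0.63), while Brd9 had -0.01 with Bicra and -0.04 with Bicral. The median over the 12 pairs of the same class was 0.38, against 0.20 over the 33 pairs of different classes. These values describe libraries that share sequencing depth and length index, and r with that index was 0.20 for Arid1b and 0.48 for Bicral.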

How the data were processed

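RNA was measured in 64 libraries made by Smart-seq2 and tagmentation, per the labels' protocols, which mark neither strand nor molecule. The authors deposited raw read counts for Ensembl gene identifiers. The submitters' processing notes name featureCounts and the mm10 build (GRCm38). The version of featureCounts, the aligner and the annotation release were not given in the sources used here. Count tables list 38924 genes for LSK, 15790 for CMP, 27892 for GMP and 13050 for MEP. Spike-ins stayed out of library sizes. Symbols, positions and exon lengths came from GENCODE M21 (GRCm38).

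Each population was fitted with its 3 genotypes by edgeR 4.0.16 (R 4.3.3, robust quasi-likelihood, TMM, filterByExpr with minimum count 10 and total 15). Gates were compared in 1 model of CMP, GMP and MEP (11829 genes tested), and KO effects of LSK against the others in a model of all 64 libraries (11900 tested). The fits used no covariates. p-values were adjusted by Benjamini-Hochberg over all genes tested, with a threshold of 0.05. Every adjusted p is from this edgeR test unless DESeq2 1.42.0 or limma 3.58.1 (voom with quality weights) is named. The SE is the log2 fold change divided by the square root of F. Levels are CPM scaled by TMM over the 11902 genes listed in all 4 tables, and per kb of union exon length. The scripts were tested on simulated data.

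Replicates agreed less closely than sampling noise alone allows in every pair, and no 2 libraries were identical. Separate libraries made from 1 fetus could differ in the same way, so this does not show that the libraries are independent. Each was counted as 1 sample. Depth limits Bicra most, with 19 to 36 reads in WT LSK libraries.

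The rule was to name all 10 members in every comparison. It is kept for KO against WT. In the other comparisons the members named are those that passed, stood apart or came nearest to passing, chosen after their values were seen, and counts cover the rest. Of other BAF genes those that passed in KO against WT are named, and for Arid1b and Bicral the 3 genes of highest correlation whose mean log2 CPM was 3 or more. The members and lists were chosen with earlier results of these data known. Alternatives were DESeq2, limma, scaling by RLE, a count filter that was absent or stricter, only the 2 groups, sex, the title number or the last number of the title as a block, spike-in share and length index as covariates, each library left out in turn, and, added after seeing the data, the libraries numbered 8 left out.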

Additional observations from a re-analysis of the deposited data

Results flagged for a closer look

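For each member and each group of 4 to 10 libraries, the highest and lowest libraries were compared with the range of their group. Of 80 combinations 9 had a library apart by Dixon's test, and chance gives about 1 in 20. Of these, 3 were in the GMP HET library numbered 8, which lacks the markers of its gate and has a length index of 3.24. It had 75.2 CPM of Arid1b (others 5.72 to 34.1), 54.3 CPM of Bicra (others 1.43 to 19.8) and 91.9 CPM of Bicral (others 9.90 to 29.9). In the MEP HET library numbered 8 Dpf2 stood at 203 CPM (others 84.2 to 111), and in the CMP HET library numbered 8 Brd9 stood at 10.4 CPM (others 37.5 to 42.8).

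In the LSK HET library titled HT20.4, Arid1b stood at 47.4 CPM (others 30.5 to 37.3) and Bicra at 12.3 CPM (others 2.98 to 7.23), and this library had the highest length index of the LSK HET group, 0.26. In MEP KO replicate 15, Dpf2 stood at 132 CPM (others 87.6 to 92.8). In MEP HET replicate 1, Arid1a was lowest at 94.4 CPM (others 148 to 167). None of the 6 differences between KO effects was called for a member.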

How the results depend on the processing

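Arid1b in LSK kept its direction and call under all alternatives run, with log2 fold changes of 0.67 to 0.75 for KO against WT under 10 alternatives and 0.68 to 0.80 with each of 14 libraries left out. Arid1b and Bicral for KO against HET, Phf10 for HET MEP against CMP and Brd9 for HET GMP against MEP also kept theirs throughout.

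The number of members called moved as follows, with the share of all genes called by the same fit in brackets. DESeq2 called 1 in CMP KO against HET (3.81%), 3 in HET GMP against CMP (9.4%), 2 in HET GMP against MEP (23.4%), 2 in HET MEP against CMP (13.2%), 3 in KO GMP against CMP (25.6%), 4 in KO GMP against MEP (25.8%) and 1 in KO MEP against CMP (14.8%). limma called 6 in LSK KO against WT (25.1%), 1 in CMP KO against HET (5.59%), 9 in GMP HET against WT (50.9%), 1, 4 and 2 in HET GMP against CMP, GMP against MEP and MEP against CMP (29.3%, 46.2% and 34.6%), 0, 0 and 3 in the same KO comparisons (2.76%, 15.02% and 40.4%), 8, 6 and 1 in the same WT comparisons (57.7%, 50.2% and 18.8%), and 1 for LSK against MEP KO effects (6.87%). The length index as a covariate gave 1 in LSK KO against WT (10.1%), 1 in CMP KO against HET (3.0%), 3 in HET GMP against CMP (13.9%) and 3 against MEP (29.9%), 0 in KO GMP against CMP (8.36%) and 5 against MEP (30.3%), 1 in WT MEP against CMP (6.32%), and 1 for LSK against GMP KO effects (8.08%). The spike-in share gave 1 in LSK KO against WT (11.6%), 1 in GMP KO against WT (13.9%), 1 in HET GMP against CMP (8.07%) and 3 against MEP (22.65%), 1 in KO MEP against CMP (21.96%), 3 for GMP against MEP KO effects (29.0%) and 2 for LSK against GMP KO effects (12.4%). Without the libraries numbered 8, chosen after seeing the data, there was 1 in CMP KO against HET (3.6%), 2 in HET GMP against CMP (11.6%), 4 in KO GMP against CMP (38.8%), 4 in KO GMP against MEP (31.7%) and 1 in KO MEP against CMP (18.7%). In LSK KO against WT there was 1 with no filter (7.61%) and 5 with only the 2 groups (21.24%), and in LSK KO against HET 4 with the title number as a block (14.8%). With a covariate for the spike-in share 2 values that were not called at first turned round and passed in KO GMP, Bicral against CMP (1.75, edgeR adjusted p = 0.0230, against -0.21 without it) and Bicra against MEP (2.21, adjusted p = 0.0231, against -0.25 without it). The cause of these moves was not tested.

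Leaving out 1 library at a time gave 1 to 3 members in LSK KO against WT and 2 to 3 in KO against HET, 0 to 1 in CMP KO against HET, 0 to 2 in HET GMP against CMP, 1 to 2 in HET GMP against MEP, 0 to 3 in KO GMP against CMP, 0 to 3 in KO GMP against MEP, 0 to 1 in WT GMP against CMP and 0 to 1 in WT GMP against MEP. With the last title number as a replicate block 0 members passed in KO GMP against MEP, where 19.33% of genes did (Dpf2 0.82, edgeR adjusted p = 0.0554; Brd9 0.84, adjusted p = 0.0785). The labels do not say that such a number marks 1 fetus across gates, and same-numbered libraries correlated above 0.1 in 9 of 13 pairs for GMP and CMP, 5 of 13 for GMP and MEP and 12 of 14 for MEP and CMP. Of 261 member values not called, 111 changed sign and 60 were called under at least 1 alternative other than leaving out a library.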
